A study of Mus musculus with 22 samples.

Results

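The enzymes and anchors that set the level of cyclic AMP (cAMP) and pass it on were examined in mouse prefrontal cortex (PFC). The set took protein-coding genes whose symbol begins with Adcy and a digit (adenylyl cyclases), Pde and a digit (phosphodiesterases), Prkac or Prkar (subunits of protein kinase A, PKA) or Akap and a digit (A-kinase anchoring proteins, AKAPs). It held 57 of the 39056 genes in the count table, namely 9 adenylyl cyclases, 26 phosphodiesterases, 6 PKA subunits and 16 AKAPs. A filter on low counts kept 45 of them (7, 20, 6 and 12 of these families) among 14072 genes in all, and the tests below are on these 45. The rule reads gene symbols and no measured value, although the set was picked with earlier results of these data known.

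The mice were male, 8-12 weeks old and on a C57BL/6J background, and every one carried both a tetO-EGFP/Rpl10a and a CaMKIIα-tTA transgene, the Control mice included. The CaMKIIα promoter drives the transactivator, so that a GFP-tagged ribosomal protein is made in the cells where that promoter is active, in any region it reaches. From each of 11 PFC samples, ribosome-bound RNA was pulled down with anti-EGFP antibodies (translating ribosome affinity purification, TRAP) and total-RNA was taken from the same homogenate, which gave 22 libraries. Control mice (mice 1, 4 and 7) received saline, EtOH mice (2, 5, 8 and 9) received ethanol intraperitoneally to 2 g/kg a day in 2 injections on 4 days, and EtOH+ABT-888 mice (3, 6, 10 and 11) received the same ethanol and, on day 4, also 25 mg/kg of ABT-888, an inhibitor of poly(ADP-ribose) polymerases. All were sacrificed 2 h after the last injection. Library titles name no animal, so mouse numbers here follow the order of the library numbers within each treatment and pool.

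Adenylyl cyclases make cAMP from ATP when heterotrimeric G proteins, and for some of them calcium and calmodulin, turn them on, and phosphodiesterases break cAMP and cGMP down. cAMP binds the regulatory subunits of PKA and frees the catalytic subunits, which phosphorylate channels, receptors and the transcription factor CREB. AKAPs hold PKA, often together with a phosphodiesterase or a phosphatase, at a particular place in the cell such as the postsynaptic membrane, the nucleus or a mitochondrion.

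The TRAP libraries held 6570957 to 22002618 counts (median 15711482) and the total-RNA libraries 22132534 to 32421392 (median 28734687). Levels below are CPM, counts scaled to a library of 1000000 after TMM normalization over all 22 libraries, and levels of different genes are compared only as CPM per kb of exonic length. Of the cell type marker lists, the 6 excitatory neuron markers summed to 4248 to 6212 CPM in TRAP and 4068 to 5088 CPM in total-RNA, while the 6 astrocyte markers summed to 43.7 to 207 CPM in TRAP and 915 to 1189 CPM in total-RNA. The 10 markers of striatal projection neurons summed to 9838 to 13619 CPM in TRAP against 967 to 2025 CPM in total-RNA, and all 10 were called higher in TRAP of Control mice, in libraries labelled as PFC. The microglia markers (6 genes) summed to 225 to 238 CPM in Control total-RNA, 77.1 to 111.9 CPM in EtOH total-RNA and 61.9 to 179.7 CPM in EtOH+ABT-888 total-RNA, and to 4.54 to 38.2 CPM in TRAP, where Cx3cr1 and Aif1 were at 0 in some libraries. In bulk samples such as these, fewer cells of a type and less RNA per cell cannot be told apart.

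Before any treatment effect, the Control libraries showed which members make up each family in this tissue. Among the adenylyl cyclases, Adcy1, which calcium and calmodulin turn on, had the highest level per length of those described here in both pools, 37.3 ± 2.09 CPM per kb in TRAP and 80.2 ± 8.75 CPM per kb in total-RNA (mean ± SD, n = 3). Next in TRAP came Adcy9 at 22.8 ± 0.468 CPM per kb and Adcy3 at 20.3 ± 0.892 CPM per kb, followed by Adcy2 at 12.5 ± 2.45 CPM per kb. In total-RNA the second place went to Adcy2, a cyclase that G protein beta-gamma subunits stimulate, at 48.9 ± 3.78 CPM per kb, above Adcy9 at 20.5 ± 1.79 CPM per kb and Adcy3 at 10.1 ± 0.518 CPM per kb. The Control libraries of Adcy9 and Adcy3 in TRAP did not overlap on this scale. Adcy6, Adcy7 and Adcy8 were at the low end, at 3.63, 0.577 and 2.71 CPM per kb in total-RNA and 1.57, 0.0886 and 0.805 CPM per kb in TRAP.

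A few genes carried most of the phosphodiesterase mRNA, and they were not the same in the 2 pools. Summed over the 23 genes that encode catalytic or inhibitory subunits of cyclic nucleotide phosphodiesterases (Pde4dip, Pde12 and Pde6d, whose products have other activities, were left out of the sum), the level was 748 ± 41.1 CPM per kb in Control TRAP and 240 ± 14.7 CPM per kb in Control total-RNA (n = 3 each). Over the 11 TRAP libraries, Pde1b, a calcium- and calmodulin-dependent enzyme, took 41.3 ± 3.81% (SD) of that sum and Pde10a, which hydrolyses both cAMP and cGMP and is best known from striatal projection neurons, took 35.7 ± 4.08%. Over the 11 total-RNA libraries Pde1a led with 23.4 ± 3.50%, ahead of Pde10a with 21.005 ± 3.43%, Pde1b with 17.2 ± 2.09% and Pde4b with 9.97 ± 2.82%, and the ranges of the first 3 overlapped. Pde1a was 1.55 ± 0.497% of the sum in TRAP. Pde7b, a cAMP-specific enzyme, took 6.49 ± 0.613% in TRAP and 4.56 ± 0.428% in total-RNA, and Pde8b, also cAMP-specific, 4.89 ± 0.681% and 7.30 ± 0.936%. These shares are over all treatments. In total-RNA of Control mice 1, 4 and 7, Pde8b took more than Pde4b (8.71%, 8.36% and 7.52% against 7.64%, 6.97% and 6.78%).

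**Figure D1:**
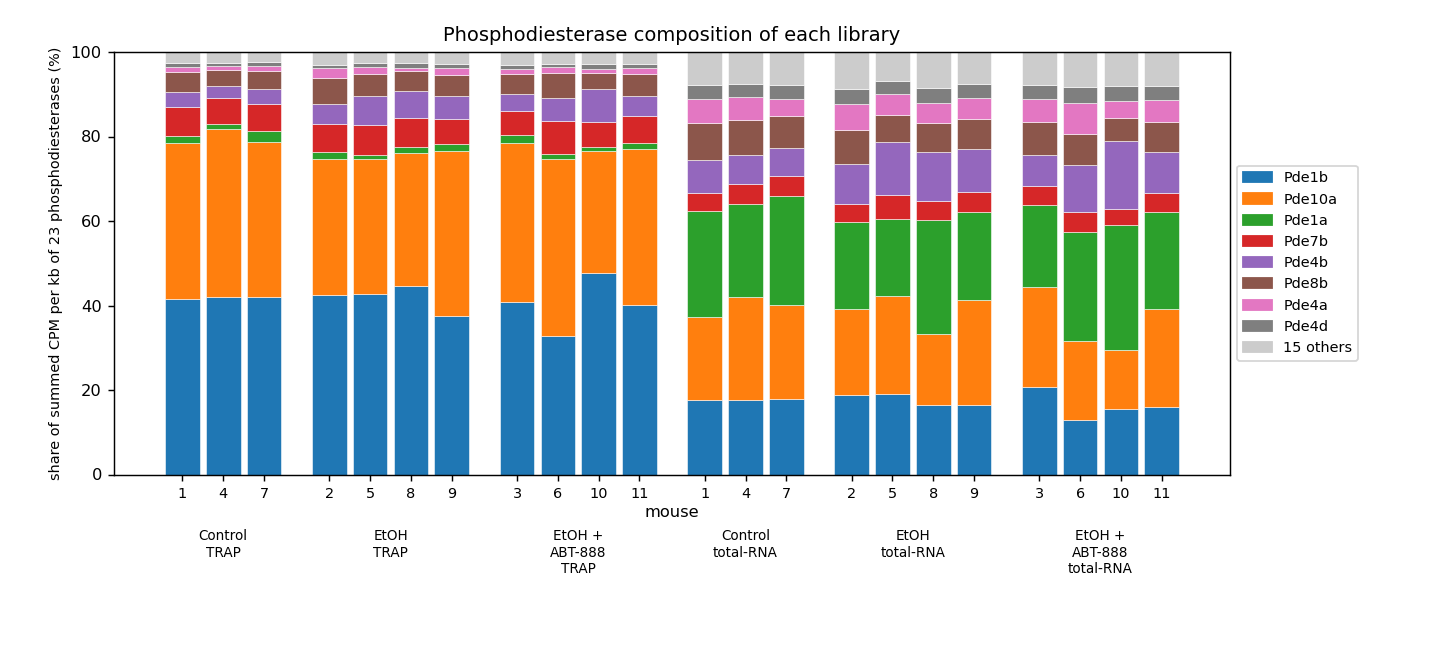
Share of the summed phosphodiesterase level (percent of CPM per kb over 23 genes) in each of the 22 libraries, 1 stacked bar per mouse and pool, grouped by treatment. Pde1b and Pde10a fill most of every TRAP bar (on average 41.3% and 35.7%), while in the total-RNA bars Pde1a has the largest average share, 23.4%, and the rest is spread over more genes.

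All 6 PKA subunits passed the filter, at levels per length that span more than an order of magnitude. In Control TRAP the regulatory subunit Prkar1a led with 168 ± 12.04 CPM per kb, followed by the catalytic Prkacb with 132 ± 7.35 CPM per kb and the regulatory Prkar1b with 132 ± 7.79 CPM per kb, a pair that did not differ beyond its spread. The catalytic Prkaca followed with 88.5 ± 8.07 CPM per kb, then the regulatory Prkar2b with 64.5 ± 2.95 CPM per kb and Prkar2a with 8.02 ± 1.18 CPM per kb. In Control total-RNA, Prkar1b (170.0 ± 17.2 CPM per kb) and Prkar1a (149 ± 2.34 CPM per kb) led, and their libraries overlapped. There Prkacb was at 90.2 ± 4.94 CPM per kb, Prkaca at 78.9 ± 4.76 CPM per kb, Prkar2b at 29.4 ± 3.35 CPM per kb and Prkar2a at 10.8 ± 0.689 CPM per kb. Over all 11 libraries of a pool, type II subunit Prkar2b took 19.02 ± 2.82% of the summed regulatory subunit level in TRAP and 7.80 ± 1.24% in total-RNA. The level of the 4 regulatory subunits relative to the 2 catalytic ones, as summed CPM per kb, was 1.69 ± 0.040 in Control TRAP (n = 3), 1.52 ± 0.082 in EtOH TRAP (n = 4), 2.13 ± 0.068 in Control total-RNA (n = 3) and 1.98 ± 0.040 in EtOH total-RNA (n = 4). In each pool the EtOH libraries all lay below the Control libraries, from 1.43 to 1.63 against 1.66 to 1.74 in TRAP and from 1.93 to 2.03 against 2.05 to 2.19 in total-RNA. The EtOH+ABT-888 libraries, from mice given the same ethanol, overlapped Control in both pools, at 1.29 to 1.80 in TRAP and 1.91 to 2.24 in total-RNA. For single genes, EtOH and Control libraries did not overlap for 22.3% of all genes in TRAP and 30.5% in total-RNA, and the pools come from the same mice. No test was made of this sum over members.

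Among the AKAPs, Akap5 (AKAP79/150), which anchors PKA at the postsynaptic density, was highest per length in Control TRAP at 85.9 ± 11.5 CPM per kb, above Akap11 (AKAP220) at 52.6 ± 3.88 CPM per kb. Akap6 (mAKAP), an anchor of the nuclear envelope, stood at 25.9 ± 3.41 CPM per kb in TRAP, next to Akap9, an anchor of the centrosome and Golgi, at 25.2 ± 3.38 CPM per kb, which did not differ from it beyond the spread. In Control total-RNA Akap11 led with 55.4 ± 2.41 CPM per kb, and Akap5 (37.6 ± 1.43 CPM per kb) and Akap6 (36.8 ± 1.29 CPM per kb) were alike within their SD.

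Ribosome-bound RNA was then compared with total-RNA in the Control mice, to see which members the tagged cells hold on ribosomes relative to the whole tissue. With edgeR's quasi-likelihood test and Benjamini-Hochberg adjustment over 14071 genes, 34 of the 45 members were called (adjusted p under 0.05), 15 higher and 19 lower in TRAP. Of all genes tested 59.9% were called in this comparison, 29.5% higher and 30.4% lower. The groups did not overlap for 36 members, beside 66.9% of all genes. By family, 1 adenylyl cyclase of 7 was higher and 5 were lower, 9 phosphodiesterases of 20 were higher and 8 lower, 2 PKA subunits of 6 were higher and 2 lower, and 3 AKAPs of 12 were higher and 4 lower.

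The members furthest above total-RNA were phosphodiesterases. Pde1b read 1623, 1807 and 1642 CPM in the Control TRAP libraries of mice 1, 4 and 7 and 212, 239.9 and 237 CPM in their total-RNA libraries, a 7.28-fold difference (log2 fold change 2.86 ± 0.09 (SE), adjusted p = 1.98e-08). Pde10a read 3436, 4055 and 3424 CPM against 563, 787 and 695 CPM, 5.28-fold (log2 fold change 2.40 ± 0.13 (SE), adjusted p = 1.62e-07). For both, the lowest TRAP library lay far above the highest total-RNA library. Pde7b was 4.30-fold higher (log2 fold change 2.10 ± 0.09 (SE), adjusted p = 6.27e-08), Pde2a, a cGMP-stimulated enzyme, 3.99-fold (log2 fold change 2.00 ± 0.17 (SE), adjusted p = 1.97e-06) and Pde1c 3.41-fold (log2 fold change 1.77 ± 0.12 (SE), adjusted p = 3.74e-07). The gene model of Pde2a shares 64.3% of its exonic length with Gm45837 on the same strand, so its counts are uncertain. Beyond the phosphodiesterases, Akap5 was 2.26-fold higher (log2 fold change 1.18 ± 0.10 (SE), adjusted p = 2.56e-06), the regulatory subunit Prkar2b 2.17-fold (log2 fold change 1.12 ± 0.10 (SE), adjusted p = 2.75e-06) and Adcy3, the cyclase of olfactory neurons and of primary cilia, 2.00-fold (log2 fold change 1.00 ± 0.09 (SE), adjusted p = 3.25e-06). All 10 striatal projection neuron markers were higher in TRAP as well (median log2 difference 3.01). Of the interneuron markers 3 of 6 were called higher and 1 lower (median 0.53, from -2.36 to 2.52), and they summed to 1827 to 1913 CPM in Control TRAP and 802 to 865 CPM in Control total-RNA. The part of these cell types in the TRAP level of Pde10a, Pde1b and Pde7b was not tested.

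The members furthest below total-RNA were Pde8a, Pde5a and Pde11a. Pde8a read 1.81, 0.720 and 0.910 CPM in TRAP and 12.5, 17.5 and 13.1 CPM in total-RNA (log2 fold change -3.78 ± 0.30 (SE), adjusted p = 1.25e-06). Pde5a, a cGMP-specific enzyme of vascular smooth muscle, read 3.42, 2.05 and 1.37 CPM against 22.5, 21.96 and 20.7 CPM (log2 fold change -3.36 ± 0.24 (SE), adjusted p = 7.87e-07). The TRAP values of these genes rest on few reads. In the 3 Control TRAP libraries together Pde8a had 46 counts, Pde11a 28 and Adcy7 29. Pde11a differed with log2 fold change -2.84 ± 0.30 (SE), adjusted p = 1.15e-05, Adcy7 with log2 fold change -2.62 ± 0.42 (SE), adjusted p = 0.000234, Akap12 (gravin) with log2 fold change -2.29 ± 0.20 (SE), adjusted p = 2.40e-06 and Pde1a with log2 fold change -2.11 ± 0.21 (SE), adjusted p = 8.51e-06. Astrocyte, microglia, oligodendrocyte and endothelial and pericyte markers (6 of 6 called lower in each list) moved the same way, as did both oligodendrocyte precursor markers and 4 of 6 excitatory neuron markers (1 was called higher, median log2 difference -1.16, from -2.23 to 1.20), and their part in the low TRAP level of these members was not tested.

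Of the other cyclases, Adcy2 (log2 fold change -1.98 ± 0.14 (SE), adjusted p = 5.23e-07), Adcy8 (log2 fold change -1.80 ± 0.17 (SE), adjusted p = 6.15e-06), Adcy6 (log2 fold change -1.20 ± 0.18 (SE), adjusted p = 0.000127) and Adcy1 (log2 fold change -1.12 ± 0.10 (SE), adjusted p = 3.31e-06) were lower in TRAP, while Adcy9 differed by 0.14 ± 0.09 (log2, SE) and did not pass the test (adjusted p = 0.222). Adcy3 overlaps Cenpo on the opposite strand over 22.1% of its exonic length, and whether strand was used in counting is not given in the sources used here. Of the PKA subunits, Prkacb was higher in TRAP (log2 difference 0.53 ± 0.09), Prkar1b (-0.38 ± 0.10) and Prkar2a (-0.44 ± 0.11) were lower, and Prkaca (0.15 ± 0.09, adjusted p = 0.184) and Prkar1a (0.16 ± 0.08, adjusted p = 0.119) did not pass.

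The split between pools was also read mouse by mouse. With 0.5 CPM added to both values, the ratio of TRAP to total-RNA was taken for each mouse, as matched by library order. It was above 1 in all 11 mice for 17 of the 45 members, below 1 in all 11 for 15, and on both sides for 13. Of all 14072 genes 24.5% were above 1 and 26.7% below 1 in all 11 mice. In EtOH mice 33 members were called, 16 higher and 17 lower in TRAP (50.7% of all genes called, 24.3% higher and 26.5% lower), and in EtOH+ABT-888 mice 27, with 14 higher and 13 lower (41% of all genes called, 19.5% higher and 21.5% lower). Blocking on mouse gave 34, 36 and 35 called members (62.5%, 58.8% and 54.3% of all genes). These 3 comparisons use separate libraries.

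**Figure D2:**
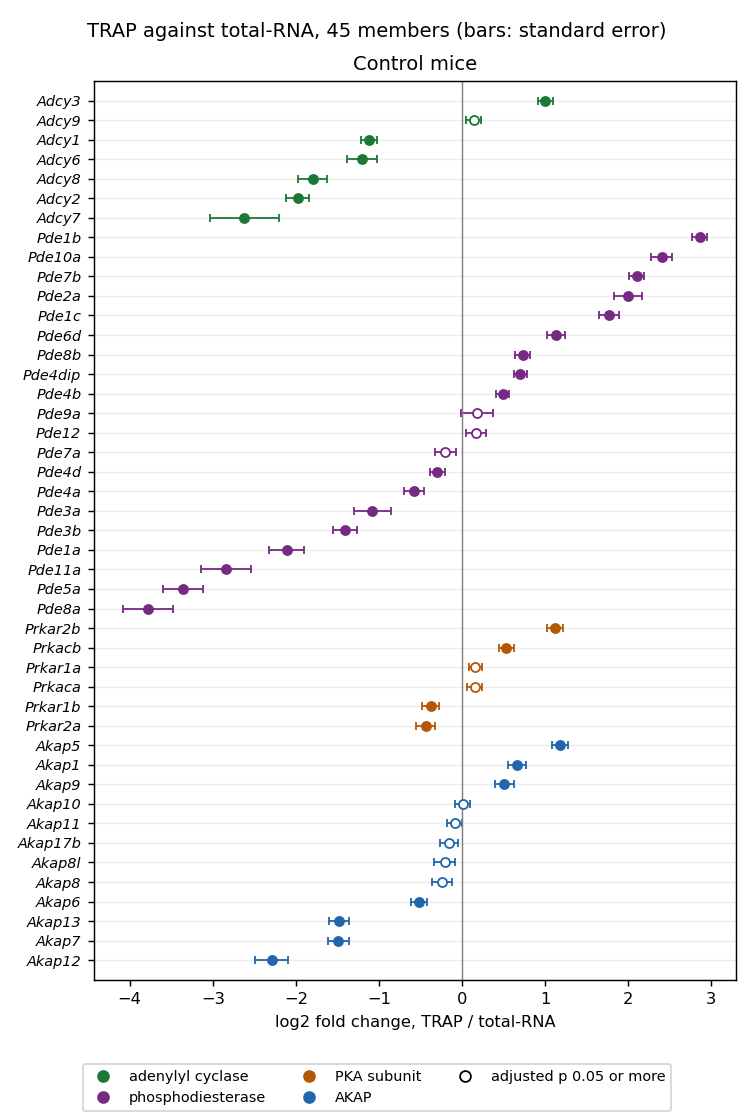
Log2 fold change of TRAP against total-RNA in Control mice for the 45 members that passed the filter, ordered within each family, with standard errors. Filled points passed an adjusted p of 0.05, and the points run from Pde8a at -3.78 to Pde1b at 2.86.

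Ethanol on 4 days was compared with saline in each pool to ask which members of the cAMP system moved. In TRAP, 5 of the 45 members passed the test, all higher with EtOH: the cyclase Adcy9, the phosphodiesterase Pde4b and the anchors Akap8, Akap8l and Akap11. Of all genes tested 5.24% were called, 2.77% higher and 2.47% lower. In the same comparison 6 of 6 excitatory neuron markers were at an unadjusted p under 0.05, beside 23.1% of all genes. Of these markers 1 was called, lower, and the list held changes in both directions (median log2 fold change -0.94, from -1.68 to 0.47). They summed to 4867 to 6212 CPM in Control TRAP and 4248 to 5693 CPM in EtOH TRAP. Of the striatal projection neuron markers 2 of 10 were called, both lower (median -0.02), and of the microglia markers 1 of 6, lower (median -1.29), while no marker of any list was called higher in TRAP. The part of these cell types in the TRAP changes was not tested. In total-RNA 12 members passed, with 5 higher (Adcy9, Pde4b, Pde12, Akap8 and Akap11) and 7 lower (Adcy2, Adcy3, Pde3b, Pde4dip, Pde5a, Prkar1b and Akap1). There 17.6% of all genes were called, 9.04% higher and 8.6% lower. Of 48 markers tested in total-RNA 5 were called higher, 2 of 10 for striatal projection neurons and 1 of 6 each for interneurons, astrocytes and oligodendrocytes, and 12 lower, and their part in the total-RNA changes was not tested. Adcy9, Pde4b, Akap8 and Akap11 were called in both pools, which is 80% of the members called in TRAP and 33.3% of those called in total-RNA. Over all genes 437 were called in both, 59.3% of those called in TRAP and 17.6% of those called in total-RNA, and the pools come from the same mice.

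The 45 members had a median log2 fold change of -0.06 in TRAP and -0.08 in total-RNA for EtOH over Control, beside 0.02 and 0.00 over all genes tested. The median size of the change, whatever its direction, was 0.32 and 0.28, beside 0.31 and 0.24 over all genes. The EtOH and Control libraries did not overlap for 13 members in TRAP (22.3% of all genes) and for 20 in total-RNA (30.5% of all genes). At an unadjusted p under 0.05, 13 members passed in TRAP (23.1% of all genes) and 22 in total-RNA (33.9% of all genes).

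**Figure D3:**
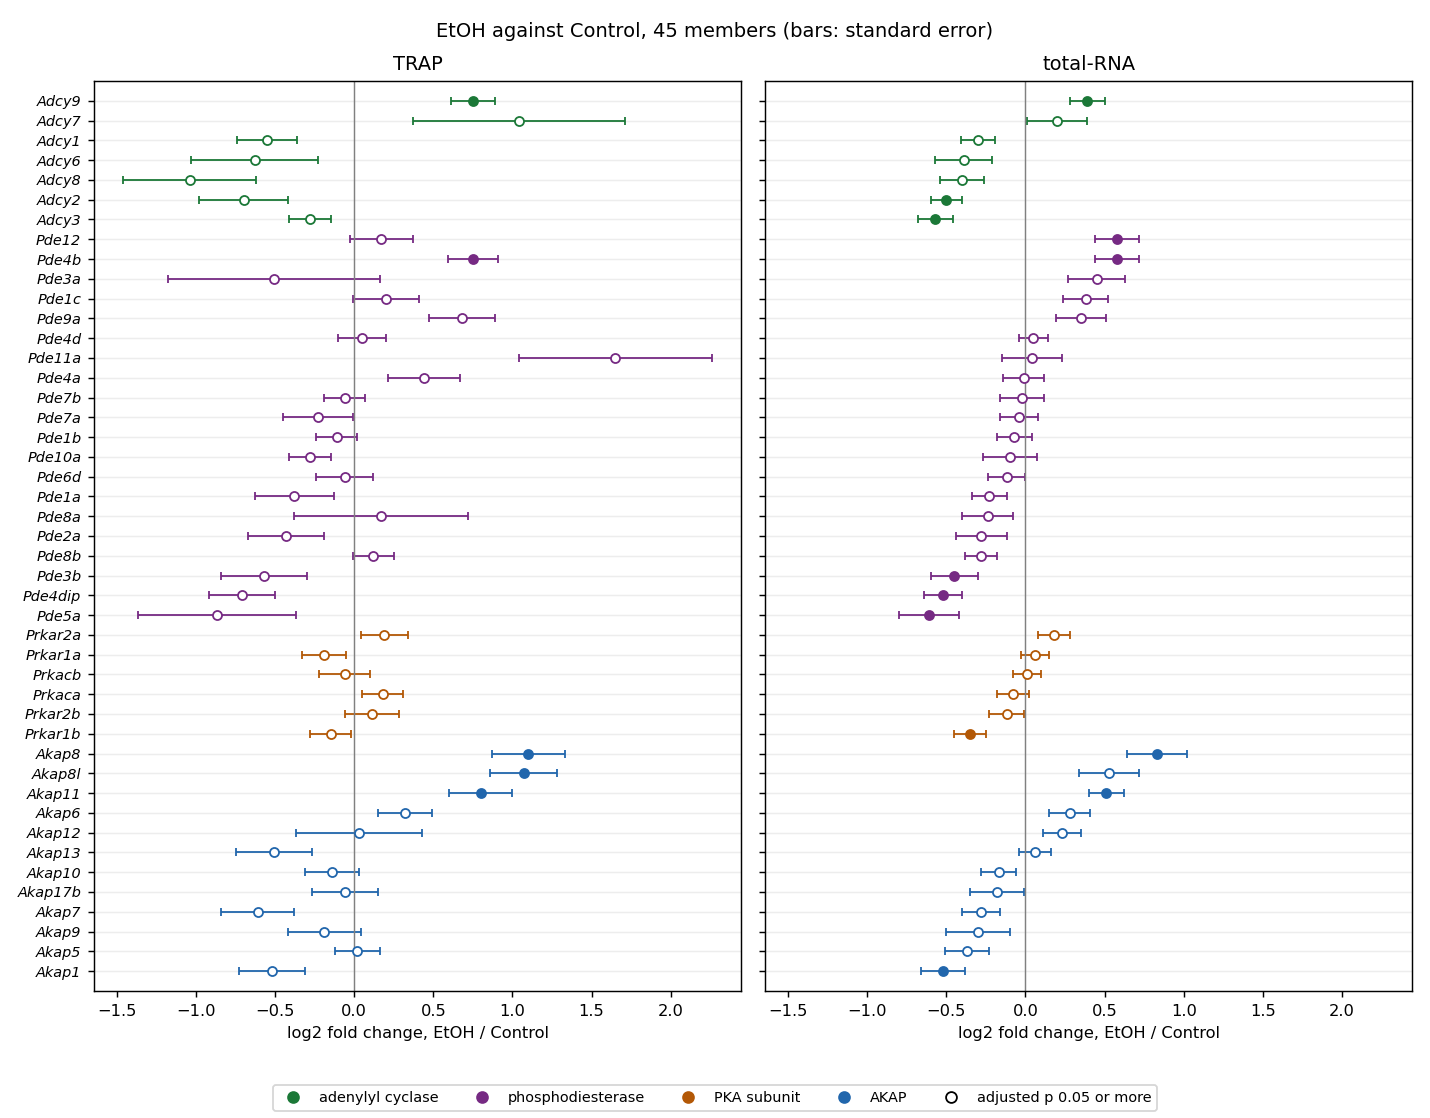
Log2 fold change of EtOH against Control for the 45 members, by family, in TRAP (left) and total-RNA (right), with standard errors. Filled points passed an adjusted p of 0.05, 5 in TRAP, all to the right of 0, and 12 in total-RNA, 5 to the right and 7 to the left.

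Adcy9 makes cAMP at the plasma membrane and is among the cyclases least sensitive to forskolin. In TRAP it read 121, 116 and 119 CPM in the Control mice and 191, 204, 169 and 223 CPM in EtOH mice 2, 5, 8 and 9, a 1.68-fold rise (log2 fold change 0.75 ± 0.14 (SE), adjusted p = 0.0144). In total-RNA it read 114, 109.8 and 96.2 CPM and then 126, 162, 129 and 142 CPM, a 1.31-fold rise (log2 fold change 0.39 ± 0.11 (SE), adjusted p = 0.0334). Every EtOH library lay above every Control library in both pools. Of the other 6 cyclases tested, none passed in TRAP, with log2 fold changes of -0.55 for Adcy1, -0.70 for Adcy2, -0.28 for Adcy3, -0.63 for Adcy6, -1.04 for Adcy8 and 1.04 for Adcy7.

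Pde4b hydrolyses cAMP only and is the target, with its relatives, of rolipram. In TRAP it read 269.7, 238 and 260.3 CPM in Control and 345, 474, 492 and 388 CPM in EtOH, a 1.69-fold rise (log2 fold change 0.75 ± 0.16 (SE), adjusted p = 0.0223), and in total-RNA 179.9, 185 and 175 CPM and 213, 341, 263 and 255 CPM, a 1.49-fold rise (log2 fold change 0.58 ± 0.14 (SE), adjusted p = 0.0135). The groups were apart in both pools, with EtOH mouse 5 or 8 on top. Its close relatives did not pass. Pde4a had a log2 fold change of 0.44 ± 0.23 in TRAP (adjusted p = 0.271) and -0.01 ± 0.13 in total-RNA (adjusted p = 0.964), and Pde4d 0.05 ± 0.15 and 0.05 ± 0.09 (adjusted p = 0.883 and 0.755). Whether Pde4b differed from Pde4a or Pde4d in its response was not tested.

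Akap11, an anchor that also binds glycogen synthase kinase 3, read 579.7, 537 and 622 CPM in Control TRAP and 829.6, 1170.1, 1269.5 and 715 CPM in EtOH TRAP, a 1.75-fold rise (log2 fold change 0.80 ± 0.20 (SE), adjusted p = 0.0398). In total-RNA the values were 589, 603 and 640.3 CPM and 750.5, 975, 907 and 851 CPM, a 1.43-fold rise (log2 fold change 0.51 ± 0.11 (SE), adjusted p = 0.00709). The groups did not overlap in either pool, and mice 5 and 8 were the highest of the EtOH mice in both.

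Akap8 (AKAP95) and Akap8l, its homologue, are proteins of the nuclear matrix, and their genes lie next to each other on the same strand (mm10, chr17:32303672-32321238 and chr17:32321424-32350607, minus strand). Akap8 read 27, 24.2 and 22.01 CPM in Control TRAP and 45.6, 63.5, 61.6 and 34.1 CPM in EtOH TRAP, a 2.14-fold rise (log2 fold change 1.10 ± 0.23 (SE), adjusted p = 0.0194), and 30.8, 25.9 and 28.7 CPM and 40.7, 69.3, 55.4 and 36.1 CPM in total-RNA, a 1.77-fold rise (log2 fold change 0.83 ± 0.19 (SE), adjusted p = 0.0126). Akap8l read 23.8, 29.02 and 27.7 CPM and 40.9, 63.03, 71.3 and 47.3 CPM in TRAP, a 2.11-fold rise (log2 fold change 1.07 ± 0.21 (SE), adjusted p = 0.0173). In total-RNA, where it read 35.1, 30.2 and 27.4 CPM and 35.2, 55.2, 55.7 and 32.5 CPM, the EtOH and Control ranges overlapped and the gene did not pass (log2 fold change 0.53 ± 0.19 (SE), adjusted p = 0.0690). Mice 5 and 8 were again the highest of the EtOH mice for both genes in both pools.

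Pde12 is named with this family but cuts 2',5'-linked RNA, and it works in mitochondria. In total-RNA it read 21.6, 22.5 and 25.6 CPM in Control and 30.5, 39.4, 38.8 and 30.5 CPM in EtOH (log2 fold change 0.58 ± 0.14 (SE), adjusted p = 0.0127), with no overlap, while in TRAP it had 0.17 ± 0.20 (adjusted p = 0.649). It overlaps Arf4 on the opposite strand over 6.8% of its exonic length.

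**Figure D4:**
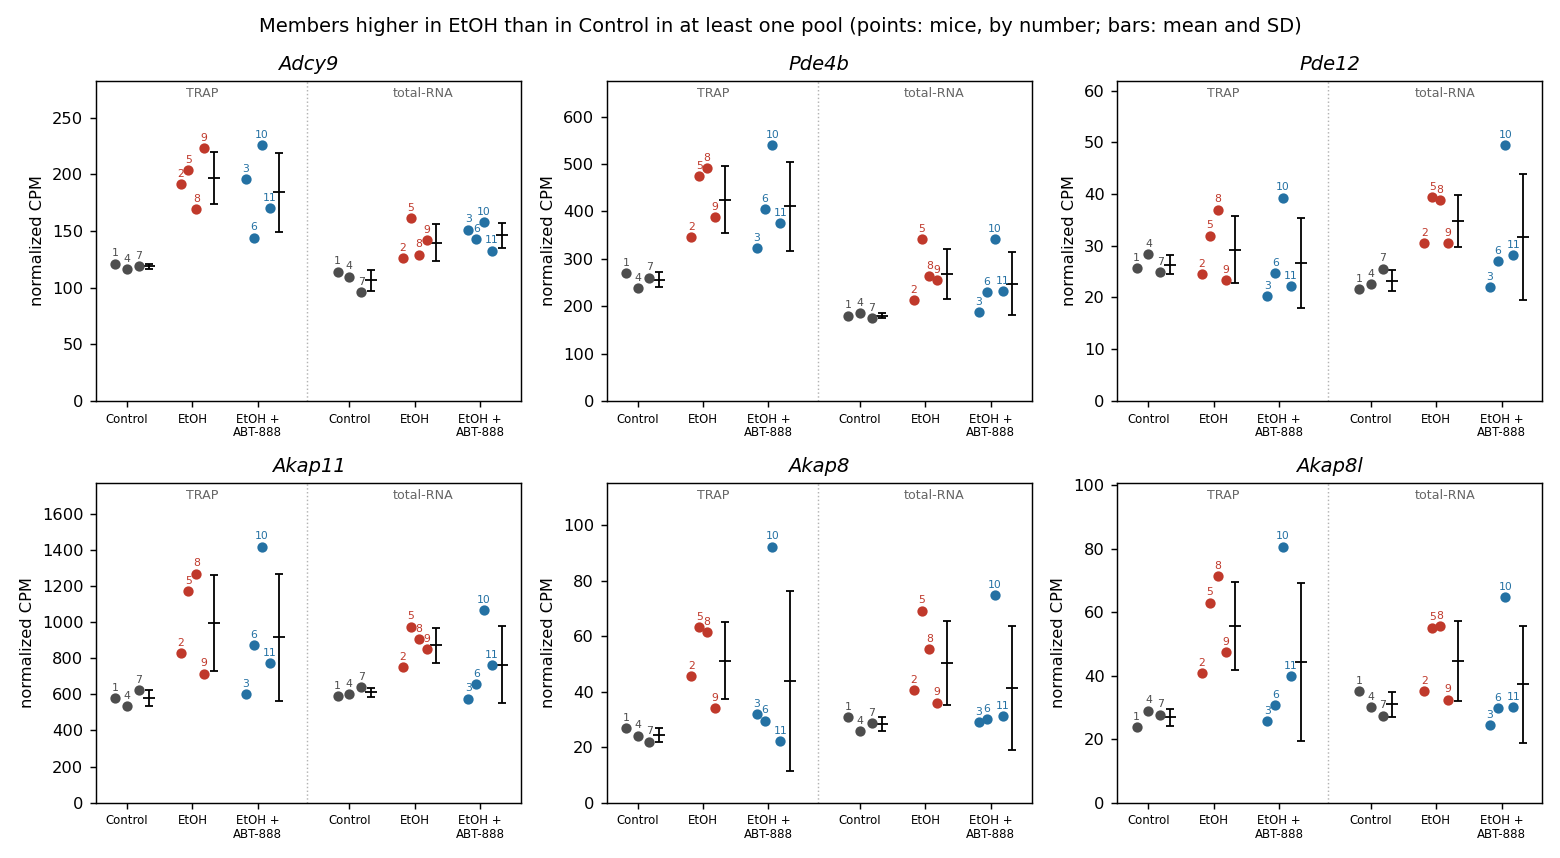
Normalized CPM of the 6 members called higher with EtOH in either pool, 1 point per mouse with its number, and the mean and SD beside each group, TRAP on the left and total-RNA on the right of each panel. The EtOH points lie above all Control points in every panel and pool where the member was called, and mouse 10 is the highest EtOH+ABT-888 mouse for 5 of 5 called members in each pool.

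The starts of these genes were read for the cAMP response element (CRE), the site that CREB binds, because CREB is a PKA substrate. The RefSeq windows ran from 250 bases before to 50 after each annotated start (build GRCm38.p6), and the short core TGACG was searched on both strands, where the other strand reads CGTCA. At least 1 core was found in 4 of the 6 members called higher with EtOH (Akap11, Adcy9, Pde4b and Akap8l) and in 1 of the 6 called lower that have a window (Prkar1b). Counted by gene, it was found in 34.8% of the 46 members with a window and in 23% of 27025 genes in all. Counted by window, of which a gene can have several, it was found in 20.2% of the 89 windows of members and in 20.8% of all 32851 windows. The full palindrome TGACGTCA, which holds the short core on both strands, was found in only 1 member, Prkar1a, in 2 of the 89 windows of members (2.25%) and in 1.79% of all windows. The stretches below show cores of the 3 members called in both pools that have one (for Akap11, the 2 of its 3 cores that lie close together), and the full palindrome of Prkar1a, on the strand of the gene with the motif in capitals. They are a description of letters and show no binding.
Akap11 (chr14:78536955-78537026, minus strand): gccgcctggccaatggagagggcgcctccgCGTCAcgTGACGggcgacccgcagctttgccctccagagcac
Adcy9 (chr16:4420499-4420552, minus strand): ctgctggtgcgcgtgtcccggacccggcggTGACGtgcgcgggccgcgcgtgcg
Pde4b (chr4:102421509-102421537, plus strand): gatttggctgcaCGTCAattttctcatct
Prkar1a (chr11:109650889-109650918, plus strand): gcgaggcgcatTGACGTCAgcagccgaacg
The 2 cores shown for Akap11 lie 136 and 129 bases before its start, on opposite strands, and its other core, which is not shown, lies 221 bases before the start. The core of Adcy9 lies 24 bases before its start, and that of Pde4b 34 bases before the start of 1 of its 4 windows. Prkar1a, whose window holds the full palindrome 49 bases before a start, had log2 fold changes of -0.19 ± 0.14 in TRAP and 0.06 ± 0.09 in total-RNA with EtOH and did not pass (adjusted p = 0.429 and 0.643).

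The 7 members that fell with EtOH did so in total-RNA, and none of them passed in TRAP. Adcy3 read 64.9, 64.8 and 59.2 CPM in Control and 44.2, 45.2, 36.3 and 43.2 CPM in EtOH total-RNA (log2 fold change -0.57 ± 0.11 (SE), adjusted p = 0.00444), and Adcy2 read 219, 211 and 188 CPM and 153, 133, 156 and 139 CPM (log2 fold change -0.50 ± 0.10 (SE), adjusted p = 0.00603). For both cyclases all 4 EtOH libraries lay below all 3 Control libraries. In TRAP, Adcy3 read 122, 133 and 126 CPM and 107, 93.9, 97.8 and 115 CPM (-0.28 ± 0.13, adjusted p = 0.228) and Adcy2 49.3, 44.7 and 64.4 CPM and 36.5, 18.2, 24.9 and 49.4 CPM (-0.70 ± 0.28, adjusted p = 0.154).

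Of the phosphodiesterases, Pde5a read 22.5, 21.96 and 20.7 CPM in Control and 13.2, 10.1, 13.97 and 19.6 CPM in EtOH total-RNA (log2 fold change -0.61 ± 0.19 (SE), adjusted p = 0.0389). Pde3b, a cGMP-inhibited enzyme that insulin signalling turns on, read 17.5, 17.4 and 19.1 CPM and 14.7, 11.2, 11.7 and 15.03 CPM (log2 fold change -0.45 ± 0.15 (SE), adjusted p = 0.0497). In both cases the groups were apart, but the nearest EtOH library (mouse 9) was close to the lowest Control library for Pde5a. Pde4dip (myomegalin), a Golgi and centrosome protein that anchors PDE4 enzymes and PKA, read 373, 395 and 355 CPM and 279, 222, 229 and 313 CPM in total-RNA (log2 fold change -0.52 ± 0.12 (SE), adjusted p = 0.0133). In TRAP the same gene read 604, 629 and 609.6 CPM and 422, 251, 296 and 518 CPM, also without overlap, but its change of -0.71 ± 0.21 did not pass (adjusted p = 0.0647).

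Prkar1b, a regulatory subunit found mainly in neurons, was the only PKA subunit that passed. It read 696, 674 and 573 CPM in Control and 483, 540.0, 538 and 467 CPM in EtOH total-RNA, 0.784 of the Control level (log2 fold change -0.35 ± 0.10 (SE), adjusted p = 0.0335). The other 5 subunits had log2 fold changes from -0.19 to 0.19 in TRAP and from -0.12 to 0.18 in total-RNA, and Prkar1b itself had -0.15 ± 0.13 in TRAP (adjusted p = 0.524). Prkar1b shares 9.0% of its exonic length with Gm15672 on the same strand.

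Akap1, which anchors PKA at the outer mitochondrial membrane, read 41.6, 44.5 and 40.96 CPM in Control and 29.4, 26, 24.9 and 38.1 CPM in EtOH total-RNA (log2 fold change -0.52 ± 0.14 (SE), adjusted p = 0.0282). The groups did not overlap, and EtOH mouse 9 was the nearest to Control. In total-RNA markers of several cell types were also called lower with EtOH, 5 of 6 for microglia (median log2 fold change -1.61), 3 of 6 for excitatory neurons (median -0.35) and 2 of 6 for endothelial cells and pericytes (median -0.23), and no gene of these 3 lists was called higher. The excitatory neuron markers summed to 4187 to 5088 CPM in Control and 4068 to 4903 CPM in EtOH total-RNA, and the endothelial and pericyte markers to 120.4 to 141.6 CPM and 87.5 to 119.99 CPM. The part of these cell types in the fall of the total-RNA members was not tested.

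**Figure D5:**
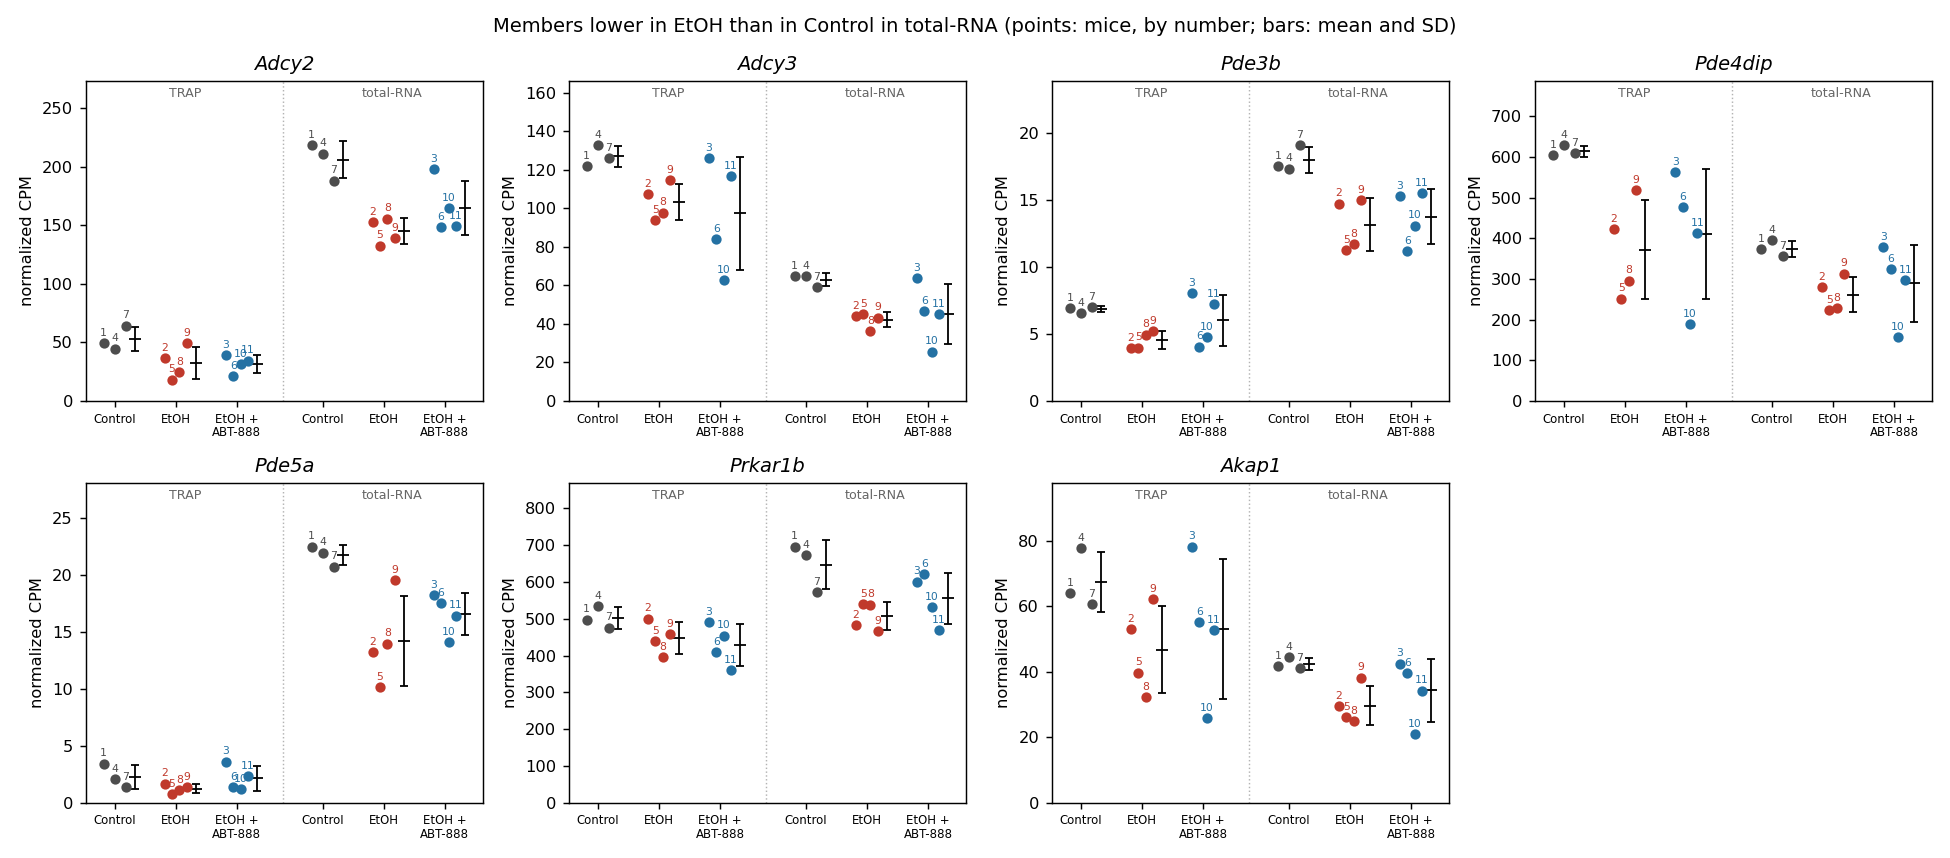
Normalized CPM of the 7 members called lower with EtOH in total-RNA, 1 point per mouse with its number, and the mean and SD beside each group, TRAP on the left and total-RNA on the right of each panel. In total-RNA the 4 EtOH points lie below the 3 Control points in every panel. There EtOH+ABT-888 mouse 3 is within the Control range for Adcy2, Adcy3, Pde4dip, Prkar1b and Akap1, and mouse 6 is for Prkar1b.

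Many of these calls were lost when 1 library was left out. In TRAP, 0 of the 5 calls was left without any one of Control libraries 1, 4 or 7 (0.668%, 0.597% and 0.796% of all genes called), and 11 members were called without EtOH library 9 (11% of all genes). In total-RNA, 4, 3 and 7 members were called without Control libraries 1, 4 and 7 (6.7%, 6.24% and 8.71% of all genes) and 18 without EtOH library 9 (25.7% of all genes). Only Adcy2, Adcy3 and Akap11 were called whichever library was left out. Leaving out an EtOH library also ended calls, that of Akap11 in TRAP without mouse 5 or 8 and, in total-RNA, those of Akap1, Pde3b and Pde5a without mouse 2, 5 or 8, of Prkar1b without mouse 2 and of Adcy9 without mouse 5. In a single fit to all 22 libraries, Adcy9, Pde4b and Akap11 were still called in TRAP, Akap8 and Akap8l were not (adjusted p = 0.0945 and 0.0646), and none of the 12 total-RNA calls was left (8.46% of all genes called in TRAP and 1.07% in total-RNA). The difference between the pools in the EtOH effect was tested as an interaction in that fit. It was called for 0 of the 45 members (0.0213% of all genes), with 2 at an unadjusted p under 0.05 (4.87% of all genes), Akap13 (-0.59, TRAP minus total-RNA) and Pde11a (1.59). It was called for 0 members with DESeq2 and with the likelihood ratio test (0.114% of all genes each) and with the mouse as a block (0.0995% of all genes). Under that block 6 members were at an unadjusted p under 0.05, beside 10.6% of all genes, namely Adcy9, Pde8b, Pde11a, Pde12, Akap8l and Akap13, and no member was shown to respond in 1 pool only.

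Other genes of the pathway came from a list of G protein alpha subunits, PKA inhibitor peptides, Epac, CREB and its coactivators, cAMP-binding Popeye proteins, guanylyl cyclases, PKG and PKA-regulated phosphoproteins, of which 31 passed the filter. With EtOH 2 of the 31 were called in TRAP (1 higher, 1 lower), 6.45% beside 5.24% of all genes, and 2 in total-RNA (1 higher, 1 lower), 6.45% beside 17.6%. Pkia, a peptide that inhibits the catalytic subunits of PKA, rose in both pools. It read 244, 233 and 235 CPM in Control and 366, 687, 423 and 332 CPM in EtOH TRAP (log2 fold change 0.96 ± 0.23 (SE), adjusted p = 0.0352) and 204, 187 and 234 CPM and 296, 385, 286 and 306 CPM in total-RNA (log2 fold change 0.61 ± 0.12 (SE), adjusted p = 0.00624). Every EtOH library was above every Control library, and mouse 5 was the highest in both pools. The TRAP call was lost without any one Control library or EtOH library 8 (adjusted p = 0.0528 to 0.139), and the total-RNA call in the single fit over 22 libraries (adjusted p = 0.267). For EtOH+ABT-888 against Control, Pkia did not pass the quasi-likelihood test in TRAP (log2 fold change 0.95, adjusted p = 0.141) or total-RNA (0.43, adjusted p = 0.323). DESeq2 called it in TRAP (adjusted p = 0.0193) and not in total-RNA.

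Crem, whose products include repressors of CRE-driven transcription, read 29.8, 27.8 and 30.1 CPM in Control TRAP and 15.3, 9.56, 15.9 and 11.4 CPM in EtOH TRAP, 0.450 of the Control level (log2 fold change -1.15 ± 0.21 (SE), adjusted p = 0.0122). In EtOH+ABT-888 TRAP it read 15.01, 12.01, 10.4 and 14.95 CPM, again below all Control libraries (log2 fold change -1.15 ± 0.21 (SE), adjusted p = 0.0354). With EtOH+ABT-888, 1 of the 31 genes was called in TRAP (3.23%, beside 0.476% of all genes) and 0 in total-RNA (beside 0.263%). The EtOH call of Crem was lost without any one Control library (adjusted p = 0.0589 to 0.0685), and the EtOH+ABT-888 call without any one Control library or without EtOH+ABT-888 library 6 or 11 (adjusted p = 0.109 to 0.245). In total-RNA Crem did not pass the quasi-likelihood test with EtOH (log2 fold change -0.47, adjusted p = 0.0629) or EtOH+ABT-888 (-0.34, adjusted p = 0.288). DESeq2 called the EtOH change there (adjusted p = 0.0375). Arpp19, a PKA substrate that in its phosphorylated form inhibits the phosphatase PP2A, fell in total-RNA with EtOH (log2 fold change -0.38 ± 0.12 (SE), adjusted p = 0.0458), but was called in only 1 of the 7 fits with 1 library left out, that without EtOH library 9, and not in the single fit (adjusted p = 0.259). Between the pools, 25 of the 31 were called in Control mice, 11 higher and 14 lower in TRAP (80.6%, beside 59.9% of all genes).

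EtOH+ABT-888 mice were compared with the same Control libraries and with the EtOH mice, to ask what the inhibitor given on day 4 changed. Against Control, 0 of the 45 members passed in TRAP (0.476% of all genes called) and 0 in total-RNA (0.263%), with 7 and 11 members at an unadjusted p under 0.05 (12.1% and 15.9% of all genes). Against EtOH, 0 members passed in either pool (0% of all genes called), with 0 in TRAP and 1 in total-RNA at an unadjusted p under 0.05 (0.967% and 1.91% of all genes). That 1 was Akap12 (log2 difference 0.65). DESeq2 and edgeR's exact test both called 2 members against Control in TRAP (3.01% and 2.26% of all genes) and 3 in total-RNA (4.41% and 3.87%), and 0 against EtOH (0% in TRAP and 0.0142% in total-RNA with either). Their calls against Control were Adcy9 in both pools, Pde4b in TRAP, and Akap12 and Akap5 in total-RNA. Against Control 2 of 6 excitatory neuron markers were called in TRAP and 1 of 6 in total-RNA, all lower (median log2 fold change -1.02 and -0.22). The other lists had 0 called in either pool, with medians of 0.87 for oligodendrocytes in TRAP and -1.06 for microglia in total-RNA, and the part of these cell types in the values below was not tested.

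Adcy9 read 196, 144, 226 and 170.4 CPM in the TRAP libraries of EtOH+ABT-888 mice 3, 6, 10 and 11, all above the Control libraries (0.65 with an adjusted p of 0.0214 in DESeq2), and 151, 143, 158 and 133 CPM in total-RNA, also all above (0.46, adjusted p = 0.00795 in DESeq2). Against EtOH its log2 difference was -0.10 in TRAP (95% interval -0.44 to 0.23) and 0.07 in total-RNA (-0.16 to 0.29). Pde4b read 322, 405, 540.0 and 375 CPM in TRAP, above all Control libraries (0.70, adjusted p = 0.0269 in DESeq2), and 187, 229, 342 and 232 CPM in total-RNA, where mouse 3 was close to Control. Against EtOH it differed by -0.06 (-0.43 to 0.32) in TRAP and -0.11 (-0.48 to 0.25) in total-RNA. These intervals leave room for differences in either direction.

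The AKAPs that rose with EtOH were spread most widely among EtOH+ABT-888 mice. Akap8 read 32.1, 29.6, 92.3 and 22.1 CPM in TRAP and 29.2, 30.2, 74.9 and 31.3 CPM in total-RNA, with mouse 10 above every EtOH mouse and the other 3 mice below every EtOH mouse in both pools. Akap8l read 25.8, 30.8, 80.7 and 39.8 CPM and 24.5, 29.7, 64.8 and 29.99 CPM, and Akap11 603, 872, 1418 and 774 CPM and 576, 655, 1065 and 763 CPM, with mouse 10 highest each time, and for Akap8l the other 3 mice were again below every EtOH mouse. Against EtOH the log2 difference of Akap8 was -0.22 (95% interval -0.96 to 0.52) in TRAP and -0.28 (-0.88 to 0.31) in total-RNA. That of Akap8l was -0.33 (-0.96 to 0.29) and -0.26 (-0.83 to 0.30), and that of Akap11 -0.12 (-0.63 to 0.38) and -0.19 (-0.52 to 0.15). Over the members called with EtOH, mouse 10 was the EtOH+ABT-888 mouse furthest in the called direction for 5 of 5 in TRAP and for 5 of 5 higher and 4 of 7 lower members in total-RNA. Mouse 3 was the furthest the other way for 3 of 5 in TRAP, and for 4 of 5 and 5 of 7 in total-RNA. These ranks were not counted over all genes, so they cannot be read as particular to the members.

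Akap12, an anchor that scaffolds PKA with protein kinase C and beta-adrenergic receptors, read 36.7, 38.3 and 35.5 CPM in Control, 51.5, 42.9, 38.8 and 39.5 CPM in EtOH and 42.7, 77.8, 73.4 and 76.8 CPM in EtOH+ABT-888 total-RNA. All 4 EtOH+ABT-888 libraries were above the Control libraries (0.89, adjusted p = 0.00191 in DESeq2), but mouse 3 lay within the EtOH range and far below the other 3 mice. Akap5 read 245, 263 and 261 CPM, 161, 232, 169 and 231 CPM and 186, 188, 141 and 197 CPM in the same groups, with all EtOH+ABT-888 and all EtOH libraries below Control. In edgeR's quasi-likelihood test it passed neither for EtOH (-0.37 ± 0.14, adjusted p = 0.0744) nor for EtOH+ABT-888. DESeq2 called it for EtOH+ABT-888 (-0.52, adjusted p = 0.00794). For the members that fell with EtOH, the differences of EtOH+ABT-888 from EtOH in total-RNA ran from 0.06 for Pde3b (-0.26 to 0.39) to 0.22 for Pde5a (-0.16 to 0.60). Adcy2, at 198, 149, 165 and 149 CPM in EtOH+ABT-888 total-RNA, differed from EtOH by 0.19 (-0.05 to 0.42). Leaving out EtOH+ABT-888 library 3 gave 1 call against Control in TRAP, Pde4b (2.65% of all genes called), and 4 in total-RNA (6.18%), and leaving out library 10 gave 0 in TRAP (1.26%) and 1 in total-RNA (1.45%).

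The 12 members that did not pass the filter were Adcy4, Adcy10, Pde4c, Pde6a, Pde6b, Pde6c, Pde6g, Pde6h, Akap2, Akap3, Akap4 and Akap14. The highest value of any of them in a library was 2.25 CPM (Pde6b), and Akap4, an anchor of the sperm flagellum, had 0 counts in all 22 libraries. The rod and cone phosphodiesterase genes Pde6a, Pde6b, Pde6c, Pde6g and Pde6h had 84, 178, 108, 14 and 266 counts over all libraries, while Pde6d, a carrier of prenylated proteins, was 2.18-fold higher in TRAP than in total-RNA of Control mice. Akap2 had 193 counts, and 84.4% of its exonic length lies in the gene model of Pakap on the same strand, so its counts are uncertain.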

How the data were processed

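RNA was measured in 22 libraries, 1 TRAP and 1 total-RNA library from each of 11 mice, after rRNA depletion, paired-end sequencing and, per the labels, alignment with STAR to mm10 and counting with featureCounts. Their versions, the strand setting and the handling of reads that map to several places are not given in the sources used here. The deposited values are raw counts per Ensembl gene, which the authors did not normalize. Symbols, lengths and positions came from GENCODE mouse release M21 (38872 of 39056 gene IDs found, 184 not), and promoter sequences from RefSeq windows on GRCm38.p6 (46 members matched). Withheld genes are not reported here.

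Genes with at least 500 counts over the 22 libraries and detected in at least 3 were kept (14072), and TMM factors were computed. Each comparison was fitted on its own groups with edgeR 4.0.16 (quasi-likelihood test, R 4.3.3, limma 3.58.1), with Benjamini-Hochberg adjustment over all genes tested, and members were called at an adjusted p under 0.05. Standard errors are the log2 fold change divided by the square root of the F statistic. The interaction was fitted on all 22 libraries. Scripts were tested on simulated counts. Alternatives were other factors, no filter, DESeq2 1.42.0, edgeR's exact test, 1 fit over all libraries, the mouse as a block and leaving out each library.

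The study took both RNAs of a mouse from 1 homogenate, but the library titles name no animal. Libraries were matched by the order of their numbers within each treatment and pool. Mouse numbers, per-mouse ratios and the mouse block rest on that order. Deviations from the group means correlated within every matched pair (r = 0.142 to 0.698). Mismatched pairs of the same group were not compared, so these values cannot show that the matching is right. Treatments were given to separate animals and are not paired. The members and the lists were chosen with earlier results of these data known. Named with values are the members called in a treatment comparison, all PKA subunits and cyclases tested, the 6 furthest in each direction between pools in Control mice, and the 3 highest per length in each family. Akap9, Akap13, Pde4a, Pde4d, Pde6d and Pde8b were named after their values were seen. With TRAP libraries of 6570957 to 22002618 counts, low TRAP values are the least precise.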

Additional observations from a re-analysis of the deposited data

Results flagged for a closer look

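In 96 groups of 4 libraries, over the 24 members named by rule, 6 values stood far from the other 3 libraries of their group by Dixon's test, which by chance happens in about 1 of 20 groups. All 6 were in EtOH+ABT-888 mice. Mouse 10 was the highest for Akap8 in TRAP (92.3 CPM, the others 22.1 to 32.1) and in total-RNA (74.9 CPM, the others 29.2 to 31.3), and for Akap8l in total-RNA (64.8 CPM, the others 24.5 to 29.99). Mouse 3 was the lowest for Akap12 in total-RNA (42.7 CPM, the others 73.4 to 77.8). Mouse 6, whose TRAP library was the shallowest, was the highest for Pde1c in TRAP (92.6 CPM, the others 73.1 to 74.5). Mouse 11, whose TRAP library also had the highest summed oligodendrocyte markers (1458 CPM), was the highest for Pde8a in TRAP (6.11 CPM, the others 1.27 to 1.64). Whether depth or the markers have a part in these values was not tested.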

How the results depend on the processing

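Over the alternatives, none of the 29 single-member results changed direction, 282 of their values kept their side of the threshold and 66 lost it. For members called with EtOH against Control in TRAP (5), 8 were called with no filter on low counts (6.13% of all genes) and 0 to 11 with 1 library left out. In total-RNA (12), 0 were called in a single fit over all 22 libraries (1.07%) and 3 to 18 with 1 library left out. With ABT-888 added, the TRAP count against Control (0) became 5 with no filter (1.91%), 2 with DESeq2 (3.01%), 2 with the exact test (2.26%), 1 in the single fit (2.86%) and 0 to 1 with 1 library left out. In total-RNA (0), 2 were called with no filter (1.99%), 3 with DESeq2 (4.41%), 3 with the exact test (3.87%) and 0 to 4 with 1 library left out. The causes were not tested. Pde3b in total-RNA, at an adjusted p of 0.0497, was at 0.0520 with RLE factors and 0.05003 with no filter. EtOH+ABT-888 against EtOH and the interaction gave 0 called members under every alternative run. TRAP against total-RNA gave 28 to 35 calls in Control (36.8% to 62.5% of all genes), 29 to 36 in EtOH (29.2% to 58.8%) and 25 to 35 in EtOH+ABT-888 (23.1% to 54.3%). Under the replicate block (pools paired by mouse) these were 34, 36 and 35, and the interaction 0 with 6 members at an unadjusted p under 0.05 (10.6% of all genes). The block moved no count of calls by over 1.5 times. With 3 Control mice, leaving 1 out leaves 2, and TRAP levels under about 2 CPM rest on few reads.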
